A study of Mus musculus with 6 samples.

Results

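Levels of 10 imprinted genes that act on growth (Meg3, H19, Dlk1, Igf2, Cdkn1c, Peg3, Mest, Grb10, Ndn and Plagl1) were followed in mouse lung fibroblasts (FBs) and in organoids grown from them. The genes were taken by symbol, and all 10 had a row in each of the 6 count tables, out of 30830 rows in the single-dose PBS table, 30828 in the single-dose bleomycin table and 32285 in the others. The measurement was droplet single-cell RNA sequencing, in which unique molecular identifiers (UMIs) count the captured RNA molecules of each gene behind each cell barcode. There were 6 libraries, 1 per condition, and each pooled cells of 3 mice. All FBs came from Pdgfra-GFP reporter mice, in which GFP is expressed from the locus of Pdgfra, a receptor of platelet-derived growth factor, and the lung libraries held GFP+ cells sorted by flow cytometry. Mice were male and 10 to 14 weeks old.

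Lungs were injured with bleomycin, a drug that causes fibrosis, given by oropharyngeal aspiration. In the single-dose experiment, mice received PBS (50 µl) or bleomycin once, and FBs were collected on day 14. For that bleomycin library the labels give 2 U/kg as the dose in the protocol and 4 U/kg in the treatment field. In the repetitive experiment, mice received 3 weekly doses of PBS or of bleomycin (the first and the second dose at 1 U/kg and the last at 0.5 U/kg, each in 50 µl), and cells were collected 2 weeks after the last dose. For the organoid libraries, GFP+ FBs of PBS-treated mice (normal) or bleomycin-treated mice (2 U/kg, fibrogenic) were cultured in Matrigel for 2 weeks. They were grown with tomato+ alveolar type 2 epithelial cells (AEC2s) of other mice, which carried a tamoxifen-inducible Cre driven by the promoter of surfactant protein C, and these AEC2s had the same source description in both organoid libraries. With 1 library per condition, a difference between conditions has no replicate check, and its intervals (95%) cover counting error only.

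Imprinted genes are transcribed from the maternal or the paternal copy alone, and the parental copies are told apart by methylation of CpG dinucleotides at control regions, on the maternal or the paternal copy. Many of them act in the growth of the fetus and are turned down in most tissues after birth. Paternally expressed members of the set include Igf2, a ligand of the insulin-like growth factor receptor, Dlk1, a transmembrane inhibitor of fat cell differentiation, and Mest, Peg3, Ndn and Plagl1. Maternally expressed members include the long non-coding RNAs Meg3 and H19, Cdkn1c, which encodes the cyclin-dependent kinase inhibitor p57, and, in most tissues, Grb10, an adaptor that dampens insulin and IGF receptor signalling. Mest encodes a protein related to hydrolases, Peg3 and Plagl1 encode zinc finger proteins, and Ndn encodes necdin, a growth suppressor of the MAGE family.

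In GRCm38 with Gencode M21 annotation, 5 members lie on chromosome 7: H19 (chr7:142575529-142578143), Igf2 (chr7:142650766-142666816), Cdkn1c (chr7:143458339-143461050), Peg3 (chr7:6703892-6730431) and Ndn (chr7:62346569-62350262). Dlk1 (chr12:109452823-109463336) and Meg3 (chr12:109541001-109571726) are neighbours on chromosome 12. Mest is at chr6:30723547-30748465, Plagl1 at chr10:13060504-13131694 and Grb10 at chr11:11930508-12038683. Igf2 overlaps Gm49394 on the same strand in this annotation, a gene with no row in any of the count tables. Igf2 was the 1 member with no UMI in either single-dose table. These tables have other gene rows than the rest, and whether that sets the zeros of Igf2 was not tested. Meg3 overlaps Gm26906 on the other strand, a row that only the single-dose tables have, and Cdkn1c, Mest and Ndn overlap antisense or opposite-strand genes that only the other 4 tables list (Gm44732, Gm44296 and Gm32061). The counting of reads by strand is not given in the sources used here, so levels of these genes may be split differently in the 2 kinds of table.

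Promoter windows are shown for 4 of the 5 members that differed between FB subsets, because methylated CpGs are the mark of imprinting, and the fifth, Cdkn1c, had no entry. These windows were not chosen as control regions, so the CpGs shown need not be those that carry the imprint. The windows run from 250 bases before to 50 bases after a start site, in the RefSeq annotation of GRCm38.p6, 5′ to 3′ on the strand of the gene. CpG dinucleotides are in capitals, and of several start sites the window with the most CpGs is given. They are Meg3 (chr12:109540746-109541045, + strand), Mest (chr6:30737800-30738099, + strand), Ndn (chr7:62348027-62348326, + strand) and Grb10 (chr11:12037371-12037670, − strand).
Meg3: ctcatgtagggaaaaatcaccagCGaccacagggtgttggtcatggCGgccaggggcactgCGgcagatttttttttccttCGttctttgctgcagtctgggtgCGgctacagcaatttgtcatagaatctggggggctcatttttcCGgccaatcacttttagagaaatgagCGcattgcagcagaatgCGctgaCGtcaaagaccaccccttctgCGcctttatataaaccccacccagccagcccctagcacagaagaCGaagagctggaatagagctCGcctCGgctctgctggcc
Mest: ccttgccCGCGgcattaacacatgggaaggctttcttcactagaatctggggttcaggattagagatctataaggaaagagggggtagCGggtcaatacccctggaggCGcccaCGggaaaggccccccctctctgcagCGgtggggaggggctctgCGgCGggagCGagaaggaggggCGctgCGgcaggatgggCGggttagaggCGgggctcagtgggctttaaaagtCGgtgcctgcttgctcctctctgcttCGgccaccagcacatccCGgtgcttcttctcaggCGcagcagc
Ndn: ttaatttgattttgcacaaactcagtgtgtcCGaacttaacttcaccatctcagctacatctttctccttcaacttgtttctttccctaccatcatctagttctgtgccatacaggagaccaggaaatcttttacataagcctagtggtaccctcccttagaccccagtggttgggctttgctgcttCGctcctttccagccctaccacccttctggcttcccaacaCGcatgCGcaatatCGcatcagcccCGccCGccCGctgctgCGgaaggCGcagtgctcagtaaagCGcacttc
Grb10: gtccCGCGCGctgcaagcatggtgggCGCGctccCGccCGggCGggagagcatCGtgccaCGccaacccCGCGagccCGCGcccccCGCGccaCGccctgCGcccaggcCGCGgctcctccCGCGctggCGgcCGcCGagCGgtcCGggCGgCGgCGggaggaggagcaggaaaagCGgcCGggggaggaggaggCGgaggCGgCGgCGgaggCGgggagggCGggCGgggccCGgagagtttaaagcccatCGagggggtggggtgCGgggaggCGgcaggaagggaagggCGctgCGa

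The Grb10 window held 45 CpGs, the Mest window 17, the Meg3 window 13 and the Ndn window 11. Over all 32851 windows the median was 7 CpGs, with quartiles of 3 and 20, and 1.93% of windows held as many as that of Grb10. Windows of the other matched members held 26 (Plagl1), 24 (Igf2), 13 (Peg3) and 9 (Dlk1) CpGs, and 8 of 10 members were matched, H19 and Cdkn1c having no entry. The YY1-type motif GCCATNTT, searched on both strands, was in 0 of the windows of the 8 matched members and in 6.05% of all windows. Methylation was not measured, so these are descriptions of sequence.

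Barcodes were assigned by summed marker UMIs, with no member among the markers. FB-gated barcodes numbered 918 of 1060 (single-dose PBS), 806 of 1015 (single-dose bleomycin), 5370 of 6139 (repetitive PBS), 7163 of 10737 (repetitive bleomycin), 2068 of 5441 (normal organoids) and 3298 of 8894 (fibrogenic organoids). Libraries held from 7201081 to 238618743 UMIs, and the repetitive bleomycin library had the lowest median, 2478 UMIs per barcode. Within lung FBs, an alveolar gate (LipoFB-type markers such as Tcf21 and Npnt) and an adventitial gate (MatrixFB-type markers such as Pi16 and Col14a1) were set from the ratio of the marker sums. All 9 general FB markers had UMIs in both gates of all 4 lung libraries. Alveolar markers summed to 6461 to 15111 CPM (counts per 1e6 UMIs of the gate) in the alveolar gate and to 771.7 to 2204 CPM in the adventitial gate. The adventitial markers summed to 5909 to 10994 CPM in the adventitial gate and to 1362 to 3029 CPM in the alveolar gate. Genes of dissociation stress (Fos, Jun, Atf3 and 5 others) differed between libraries too: they summed to 8072 CPM in FBs of single-dose PBS lungs and 2693 after bleomycin, and to 10645 and 5739 CPM in the repetitive experiment.

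Grb10, Cdkn1c, Meg3 and Ndn had the highest median levels of the members in lung FBs, and H19 and Dlk1 were near the limit of detection. A captured 3′ end gives 1 UMI whatever the length of the transcript, so levels of genes are set side by side as CPM without a length correction. Grb10 had the highest median over the 4 lung libraries (169.7 CPM, 82.82 to 246.6), followed by Cdkn1c (66.39, 27.55 to 91.44), Meg3 (56.02, 28.52 to 104.4) and Ndn (52.29, 45.65 to 59.06). The ranges of Cdkn1c, Meg3 and Ndn overlapped over the libraries, and those of Cdkn1c and Meg3 reached the lowest value of Grb10, so the order of these neighbours is not set by the data. Peg3 (15.57 CPM, 9.795 to 36.09) and Plagl1 (4.223, 3.254 to 10.75) had lower medians, and their ranges overlapped. The range of Peg3 also overlapped those of Meg3 and Cdkn1c, and in repetitive PBS Peg3 was above Meg3 (36.09 against 28.52 CPM). Mest (1.471), Igf2 (0.7338), H19 (0.4046) and Dlk1 (0.06021) were the lowest by median CPM. H19 and Dlk1 had no UMI among 6146012 in FBs of single-dose PBS lungs, which allows a level of up to 0.6002 CPM each. The median of Igf2 includes the zeros of the single-dose tables, whose origin was not tested, and in the repetitive libraries Igf2 was at 2.249 CPM (PBS) and 1.468 CPM (bleomycin).

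**Figure D1:**
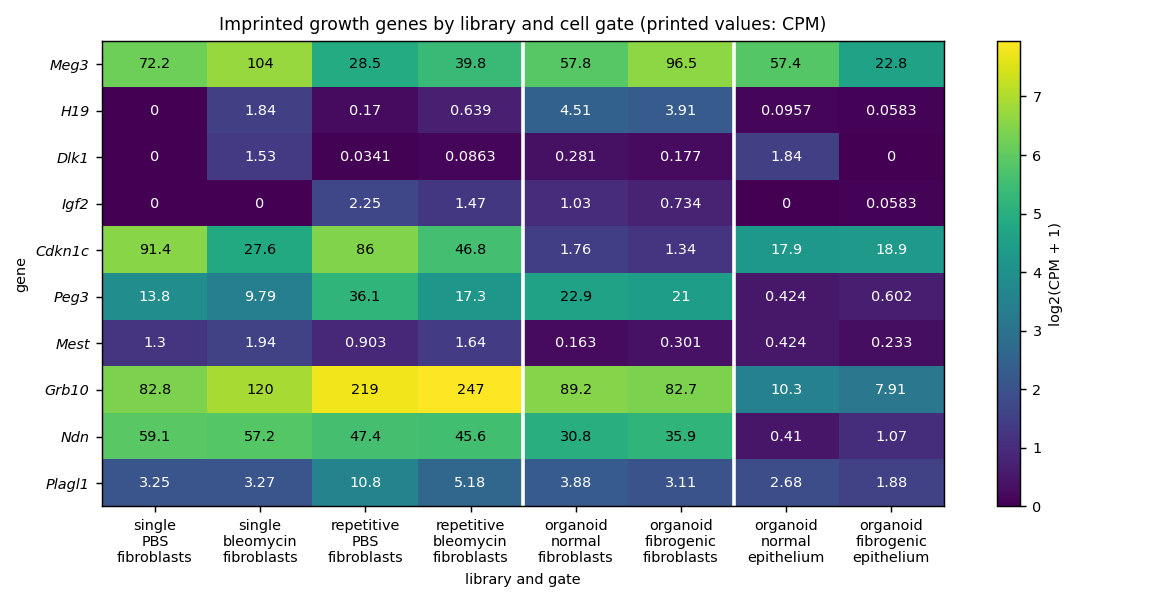
Levels of the 10 members in FBs of the 6 libraries and in organoid epithelium of the 2 organoid libraries, as summed UMIs scaled to CPM (printed in each cell; colour is log2 of CPM + 1). Grb10, Cdkn1c, Meg3 and Ndn have the highest medians over the 4 lung libraries, Cdkn1c is 1.764 and 1.337 CPM in organoid FBs, and Meg3 is present in organoid epithelium.

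The first question was whether the FB subsets differ in these genes. Both gates come from every lung library, so this is the comparison with replicates (4 libraries as a block, edgeR quasi-likelihood test, Benjamini-Hochberg adjustment over 10796 genes). Of the 7 members that passed the filter on low counts, 4 were higher in the adventitial gate (Meg3, Mest, Ndn and Cdkn1c) and 1 was lower (Grb10). Mest passed that filter through its adventitial sums alone, so the direction of its call follows in part from the filter. Over all genes tested, 13.0% were called higher, 11.8% lower and 24.9% either way. The median log2 difference was 0.83 over the 7 members and −0.03 over all genes. H19, Dlk1 and Igf2 did not pass the filter.

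Meg3, the non-coding RNA of the Dlk1 locus, was the member with the largest difference. Its level in the alveolar gate was 2.583 CPM (single-dose PBS), 2.689 (single-dose bleomycin), 2.469 (repetitive PBS) and 2.998 (repetitive bleomycin). In repetitive PBS, 3 of 4246 alveolar-gated cells held 49 of the 118 UMIs, and the other cells were at 1.445 CPM. In the adventitial gate it was 683.6, 591.9, 248.0 and 177.6 CPM in the same order. Every adventitial value was far above every alveolar value, and the adventitial values were lower in both repetitive libraries than in both single-dose libraries. The difference was 6.92 on the log2 scale (SE 0.35), or 121-fold (95% interval 69.4 to 210, adjusted p = 8.58e-06). A UMI of Meg3 was found in 77.8%, 73.3%, 55.3% and 33.6% of adventitial-gated cells and in 0.937%, 2.14%, 0.942% and 2.10% of alveolar-gated cells. Among cells with at least 2000 UMIs, each thinned to 2000 UMIs, the adventitial shares were 57.4%, 56.1%, 30.1% and 21.2%, and the alveolar shares 0.355% to 0.772%. Shallower cells were left out of these shares. Myeloid-gated cells, which should lack it, had 0 Meg3 UMIs in 3 lung libraries and 3 UMIs (2.434 CPM) in the repetitive bleomycin library. The myeloid gates are small, and 0 UMIs there allow a level of up to 25.57 CPM (single-dose PBS), 17.83 (single-dose bleomycin) and 4.945 (repetitive PBS). Apart from the 3 cells of repetitive PBS named above, the alveolar level was thus not distinguishable from background in any of the 4 libraries at this depth. Background in the alveolar sums would make the fitted fold too small, so the upper limit of the fold is not set by these data. Over the alternative settings the fitted log2 difference ran from 6.34 to 7.84. Mesothelial-gated cells, few in number, had 205.4 CPM (14 cells, single-dose bleomycin), 111.1 (16 cells, repetitive PBS) and 16.52 (34 cells, repetitive bleomycin).

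Mest showed the same pattern at a lower level. It was at 0.5961, 0.1921, 0.2930 and 0.1595 CPM in the alveolar gate and at 11.28, 12.56, 7.610 and 5.757 CPM in the adventitial gate. At these levels it passed the low-count filter through the adventitial sums alone, and it was also called with no such filter. The gates did not overlap, and the difference was 4.91 on the log2 scale (SE 0.37, 30.1-fold, 16.8 to 54.2, edgeR adjusted p = 3.33e-05). Its UMIs came from few cells, 1.35% to 6.94% of the adventitial gate. In the single-dose bleomycin library 10 of its 16 adventitial UMIs were in 1 cell, and in the repetitive bleomycin library 23 of 59.

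Ndn, the necdin gene, was at 54.64, 55.70, 39.91 and 35.88 CPM in the alveolar gate and at 103.8, 95.77, 121.0 and 82.16 CPM in the adventitial gate. Necdin RNA was thus present in both subsets, 2.28-fold higher in the adventitial gate (1.76 to 2.95, log2 1.19, SE 0.16, edgeR adjusted p = 8.11e-04). Cdkn1c, the p57 inhibitor, was at 91.40, 24.39, 80.59 and 40.66 CPM in the alveolar gate and at 101.5, 72.22, 122.7 and 73.86 CPM in the adventitial gate. Its values overlapped between gates over libraries but were higher in the adventitial gate in 4 of 4 (1.78-fold, 1.28 to 2.47, log2 0.83, SE 0.21, edgeR adjusted p = 0.0194). This call was lost without the single-dose bleomycin library (log2 0.60, edgeR adjusted p = 0.0635).

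Grb10 went the other way. It was at 85.04, 133.5, 237.5 and 300.9 CPM in the alveolar gate and at 72.19, 116.2, 123.2 and 150.4 CPM in the adventitial gate. The alveolar level was higher in 4 of 4 libraries, by 1.52-fold (1.16 to 2.00, log2 difference −0.60, SE 0.17, edgeR adjusted p = 0.0330). The gap was wide in the repetitive libraries and small in the single-dose libraries, and the call was lost without single-dose PBS (adjusted p = 0.0546), repetitive PBS (0.111) or repetitive bleomycin (0.129), and with stricter gates (0.153), by the edgeR test.

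The zinc finger genes did not pass the test. Peg3 was at 13.71, 10.37, 36.33 and 18.05 CPM in the alveolar gate and 24.82, 11.78, 35.43 and 19.81 in the adventitial gate (log2 0.21, edgeR adjusted p = 0.399). Plagl1 was at 2.583, 3.265, 9.207 and 4.656 CPM against 4.512, 3.140, 14.98 and 4.293 (log2 0.34, edgeR adjusted p = 0.411). The 95% intervals of the adventitial over alveolar fold were 0.899 to 1.49 for Peg3 and 0.832 to 1.94 for Plagl1. The remaining 3 members had few UMIs, nearly all of them outside the alveolar gate for H19 and Dlk1. H19 was at 0, 9.420, 2.378 and 2.927 CPM in the adventitial gate and at 0, 0.1921, 0 and 0.06379 CPM in the alveolar gate. Dlk1 was at 0, 10.99, 0.4756 and 0.4879 CPM in the adventitial gate, against 0.1921 CPM in the alveolar gate of single-dose bleomycin and 0 in the other 3. Its adventitial level in single-dose bleomycin rests on 14 UMIs, of which 13 were in 1 cell, and that of H19 on 12 UMIs, of which 7 were in 1 cell. Igf2 was at 9.751 and 2.244 CPM in the adventitial gate of repetitive PBS and bleomycin and at 0.7324 and 1.212 CPM in the alveolar gate. Stress genes were higher in the adventitial gate in 3 of the 4 libraries (13137 against 7513, 4613 against 2507, 13006 against 10168 and 5721 against 5814 CPM), and their part in these differences was not tested.

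**Figure D2:**
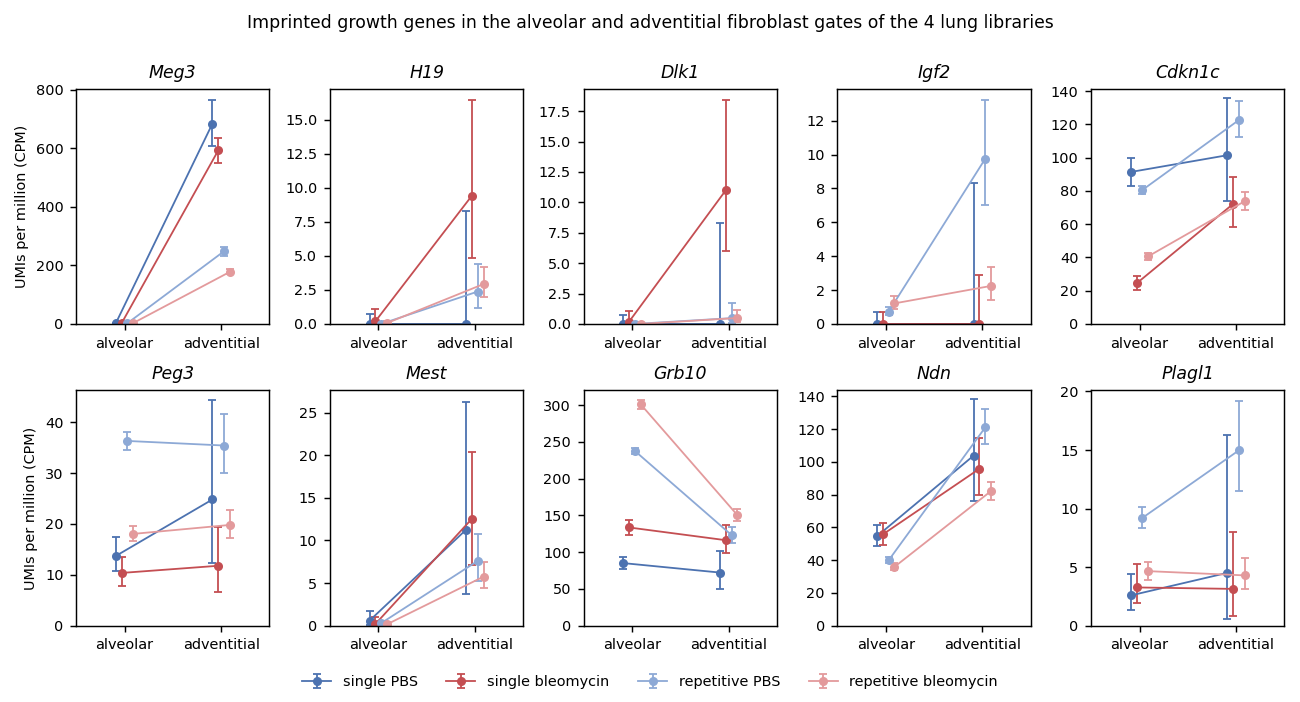
Level of each member (CPM, linear axes that start at 0 and differ between panels, error bars are 95% counting intervals) in the alveolar and adventitial gates of the 4 lung libraries. Meg3 and Mest are higher in the adventitial gate of every library with no overlap between gates, Ndn and Cdkn1c are higher by smaller steps, and Grb10 is higher in the alveolar gate of every library.

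Other imprinted genes were read from a list of 30, of which 17 passed the filter. There were 4 that were higher in the adventitial gate: Mirg, a non-coding RNA downstream of Meg3 in the same cluster (log2 5.65, edgeR adjusted p = 5.18e-05), Slc22a18, a transporter near Cdkn1c (2.28, 0.00106), Kcnq1ot1, the antisense RNA of the Cdkn1c cluster (0.79, 0.00443), and Snrpn, a splicing protein gene of the Ndn cluster (0.58, 0.0467). Mirg, like Mest, passed the low-count filter through its adventitial sums alone. Snrpn was higher in 3 of 4 libraries and went the other way in single-dose PBS (22.56 CPM in the adventitial and 24.84 CPM in the alveolar gate). There was 1 that was lower, Nnat, which encodes the proteolipid neuronatin (8.53-fold higher in the alveolar gate, edgeR adjusted p = 7.95e-05). Not all adventitial sums of Nnat reached the level of the low-count filter (1.427 CPM in repetitive PBS). The direction of its call thus follows in part from the filter. The median of the 17 was −0.17 on the log2 scale. Of the inhibitors related to Cdkn1c, 5 were tested. Cdkn2b was higher in the adventitial gate (log2 2.28, edgeR adjusted p = 0.00167) and Cdkn2c was higher in the alveolar gate (5.20-fold, edgeR adjusted p = 8.95e-04). Not all alveolar sums of Cdkn2b reached the level of the filter (0.3974 CPM in single-dose PBS and 0.8370 CPM in repetitive PBS). The direction of the Cdkn2b call thus follows in part from the filter as well. Of the partners of Igf2 and Grb10, 6 were tested. The ligand Igf1 was higher in the adventitial gate (log2 0.75, edgeR adjusted p = 0.0479, higher in 3 of 4 libraries), with 445.1 CPM against 464.7 CPM in the alveolar gate in repetitive bleomycin. The RNA-binding protein gene Igf2bp3 was higher in the alveolar gate (2.50-fold, edgeR adjusted p = 0.00215).

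The next question was the effect of bleomycin. After a single dose, Cdkn1c was the 1 of 6 measured members past 2-fold in FBs, where measured means at least 50 UMIs in both sums together and 12.5% of 10628 measured genes were past 2-fold. The level of Cdkn1c was 91.44 CPM with PBS and 27.55 CPM with bleomycin (ratio 0.301, 95% counting interval 0.260 to 0.349). Peg3 was also lower with bleomycin, at 9.795 against 13.83 CPM (0.708, 0.523 to 0.960). Higher with bleomycin were Grb10, at 120.0 against 82.82 CPM (1.45, 1.30 to 1.61), and Meg3, at 104.4 against 72.24 CPM (1.44, 1.29 to 1.62). Ndn (57.24 against 59.06 CPM) and Plagl1 (3.265 against 3.254 CPM) had intervals that included 1. Under the minimum of UMIs, H19 had 18 UMIs with bleomycin and 0 with PBS (at least 3.76-fold higher against a floor of 3 UMIs in the PBS sum), Dlk1 had 15 and 0 (at least 3.14-fold higher), and Mest had 19 and 8. Of these, 13 of the 15 Dlk1 UMIs and 7 of the 18 H19 UMIs were in 1 cell each.

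After repetitive doses, 2 of 8 measured members were past 2-fold, both lower, against 14.6% of 15151 genes. They were the zinc finger genes Peg3, at 36.09 CPM with PBS and 17.30 CPM with bleomycin (0.479, 0.444 to 0.517), and Plagl1, at 10.75 and 5.180 CPM (0.482, 0.419 to 0.554). Cdkn1c was at 85.98 and 46.81 CPM (0.544, 0.519 to 0.571), lower as in the single-dose experiment, with a ratio nearer to 1. Meg3 was at 28.52 and 39.80 CPM (1.40, 1.31 to 1.49), Mest at 0.9030 and 1.640 CPM (1.82, 1.28 to 2.59) and Grb10 at 219.4 and 246.6 CPM (1.12, 1.10 to 1.15). Igf2 was lower at 1.468 against 2.249 CPM (0.653, 0.491 to 0.864), and the interval of Ndn included 1 (0.964, 0.914 to 1.02). H19 had 37 UMIs with bleomycin and 10 with PBS, and Dlk1 had 5 and 2. Over all genes, the median log2 ratio was 0.07 in the single-dose experiment and 0.12 in the repetitive experiment, against −0.02 and −0.33 over the measured members.

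Cdkn1c was lower with bleomycin within the alveolar gate in both experiments, and within the adventitial gate its interval excluded 1 after repetitive doses only. In the alveolar gate it was at 24.39 against 91.40 CPM after a single dose (0.267, 0.218 to 0.325), the 1 of 4 measured members past 2-fold (10.1% of genes). In the repetitive experiment it was at 40.66 against 80.59 CPM (0.505, 0.473 to 0.538), and Peg3, at 18.05 against 36.33 CPM (0.497, 0.451 to 0.547), was the 1 of 7 past 2-fold (12.4% of genes). In the adventitial gate Cdkn1c was at 72.22 against 101.5 CPM after a single dose (0.711, 0.493 to 1.04), where 0 of 4 members and 8.19% of genes were past 2-fold. It was at 73.86 against 122.7 CPM in the repetitive experiment (0.602, 0.537 to 0.674). The alveolar gate held 70.5% of barcodes with single-dose PBS and 41.5% with bleomycin, and 69.2% and 29.7% in the repetitive experiment. The share of barcodes in the adventitial gate went from 6.79% to 15.9% and from 8.24% to 15.2%. Each gate's own markers summed to less with bleomycin. Alveolar markers went from 15111 to 6461 and from 12108 to 7262 CPM, and adventitial markers from 10994 to 5909 and from 10429 to 7933 CPM. The median depth of the adventitial gate went from 6215.0 to 7330.0 and from 7968.5 to 3686.0 UMIs. The part of a changed make-up of the gates in these ratios was not tested.

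Meg3 had opposite signs over all FBs and within the adventitial gate. Its adventitial level was 591.9 CPM with bleomycin and 683.6 with PBS after a single dose (0.866, 0.757 to 0.993), and 177.6 against 248.0 CPM in the repetitive experiment (0.716, 0.663 to 0.773), while over all FBs it was higher with bleomycin in both. Adventitial-gated barcodes, which held most Meg3 UMIs, were a larger share of barcodes after bleomycin in both experiments. The adventitial markers of this gate summed to less with bleomycin, as given above, and the part of this in the levels here was not tested. In the repetitive adventitial gate, Igf2 was at 2.244 against 9.751 CPM (0.230, 0.132 to 0.393) and Plagl1 at 4.293 against 14.98 CPM (0.287, 0.190 to 0.428), and these were the 2 of 8 measured members past 2-fold (5.38% of genes). Ndn was at 82.16 against 121.0 CPM there (0.679, 0.607 to 0.759). The injury gate (MyoFB-type markers such as Cthrc1) held 2 and 81 barcodes in the single-dose experiment and 31 and 321 in the repetitive experiment. Meg3 was at 27.27 and 5.831 CPM in that gate of the single-dose and repetitive bleomycin libraries, below the adventitial levels. In repetitive PBS its Plagl1 level of 139.8 CPM came from 54 UMIs, of which 49 were in 1 cell.

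The stress genes were lower in both bleomycin libraries, so the ratios were taken again in FBs with under 0.3% of their UMIs in stress genes (376 and 501 cells of the single-dose PBS and bleomycin libraries, 2001 and 3318 of the repetitive libraries). In these cells Cdkn1c was at 24.17 against 82.42 CPM (0.293, 0.235 to 0.365) and at 44.60 against 84.80 CPM (0.526, 0.488 to 0.567). These ratios were near those of Cdkn1c over all FBs. The split was chosen after seeing the data, and the part of stress in the difference was not tested. Peg3 was at 17.40 against 38.65 CPM in the repetitive experiment (0.450, 0.401 to 0.506). The ratio of Igf2 in the repetitive experiment became 1.08 with an interval that included 1 (0.647 to 1.85, 43 and 25 UMIs). Plagl1 turned its direction, to 3.335 against 1.985 CPM (1.68, 1.13 to 2.54), so its lower level after repetitive bleomycin was not seen in these cells. The ratio of Meg3 was 2.70 (2.10 to 3.52) after a single dose and 2.13 (1.86 to 2.44) after repetitive doses. In such cells of the repetitive alveolar gate, 4 of 6 measured members were past 2-fold (11.3% of genes). The ratios were 0.456 for Cdkn1c (0.414 to 0.503) and 0.471 for Peg3 (0.410 to 0.541). Those of Meg3 (2.05, 1.20 to 3.62, 46 and 21 UMIs) and Plagl1 (2.20, 1.33 to 3.75, 54 and 23 UMIs) rest on few UMIs. The bleomycin level of Meg3 in this gate was not distinguishable from background, as given above.

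**Figure D3:**
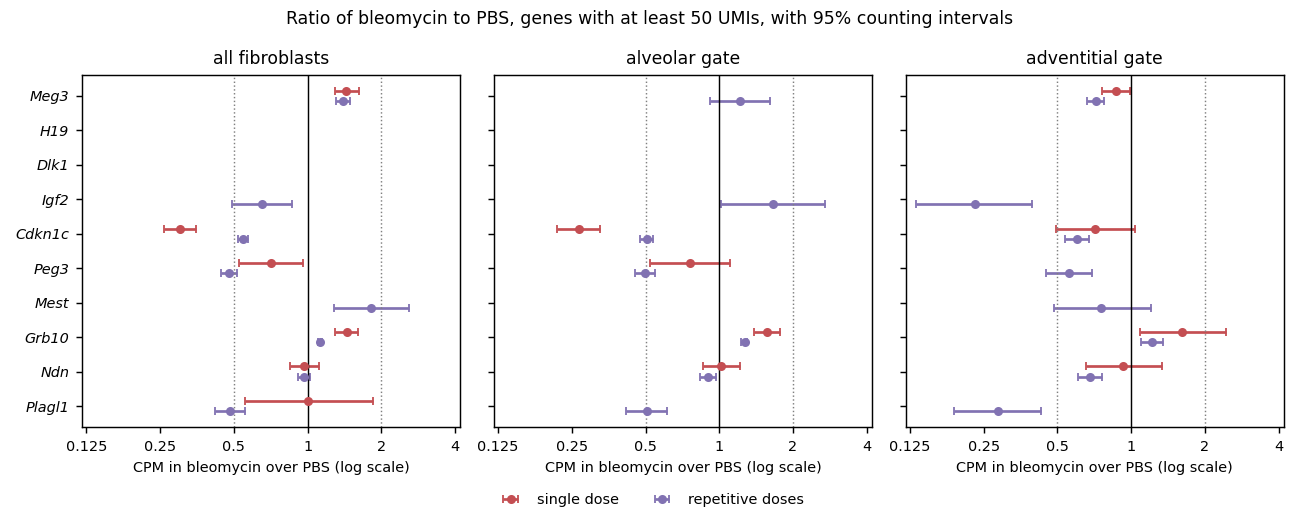
Ratio of CPM with bleomycin over PBS (log axis, bars are 95% counting intervals) for each measured member in all FBs, the alveolar gate and the adventitial gate, in the single-dose (red) and repetitive (purple) experiments. Cdkn1c lies below 1 in both experiments in all FBs and in the alveolar gate, and Meg3 lies above 1 over all FBs and below 1 in the adventitial gate.

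Among the other imprinted genes the highest ratio in both experiments was that of Nnat, at 68.16 CPM with bleomycin and 6.183 with PBS after a single dose (11.0, 7.95 to 15.7) and at 54.77 and 3.817 CPM in the repetitive experiment (14.4, 12.5 to 16.5). Neuronatin RNA was also higher in the alveolar gate, by 13.5 and 19.9 times, and in cells with few stress RNAs, by 6.69 and 22.6 times. The second highest ratios were 1.12 (Dhcr7, single-dose) and 3.96 (Peg12, repetitive). The lowest ratio in both experiments was that of Nap1l5, a nucleosome assembly protein gene, at 1.735 against 6.508 CPM (0.267) and 4.645 against 13.51 CPM (0.344). Next lowest were Cd81 (0.488, single-dose) and Peg10 (0.447, repetitive). Of 14 measured genes of the list, 1 was past 2-fold higher and 2 lower after a single dose, and of 23 measured after repetitive doses, 3 were higher and 3 lower. Over all genes, 12.5% and 14.6% were past 2-fold.

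Beside Cdkn1c, the other cyclin-dependent kinase inhibitors differed in direction after bleomycin. Cdkn1a, which encodes p21, was at 319.9 against 109.5 CPM in the single-dose experiment (2.92, 2.69 to 3.18) and at 282.3 against 150.6 CPM in the repetitive experiment (1.87, 1.83 to 1.92). Cdkn2b, which encodes p15, was at 9.387 against 1.139 CPM and at 7.097 against 1.312 CPM. Cdkn2a was at 2.245 against 0.4881 CPM and at 3.281 against 0.2897 CPM. These 3 were higher with bleomycin, while Cdkn2c, which encodes p18, was lower in both (123.3 against 227.3 and 84.12 against 155.2 CPM, 0.542 each time). Cdkn2d was at 43.47 against 50.76 and 32.31 against 37.26 CPM, and Cdkn1b at 12.75 against 23.92 and 56.20 against 55.05 CPM. Of the partners of Igf2 and Grb10, the ligand Igf1 was at 568.9 against 111.1 CPM (5.12, 4.73 to 5.55) and 481.8 against 125.5 CPM (3.84, 3.74 to 3.94). Igf2 itself was at or under 2.249 CPM in the sums over all lung FBs. The receptor genes Igf1r (0.788 and 0.789) and Insr (0.604 and 0.726) were lower with bleomycin, and Igf2r, the clearance receptor of Igf2, was higher (1.44 and 1.48). Of the Igf2 mRNA-binding protein genes, Igf2bp2 was at 6.996 to 13.71 CPM, Igf2bp3 at 7.960 to 17.25 CPM and Igf2bp1 at 0 to 0.1020 CPM over the 4 lung libraries.

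In organoids the question was whether FBs of bleomycin-treated lungs, or the epithelium grown with them, kept a difference after 2 weeks. In organoid FBs 0 of 10 members were past 2-fold, as were 4.31% of 15933 genes. Meg3 was at 57.76 CPM in normal and 96.50 CPM in fibrogenic cultures (1.67, 1.62 to 1.72), with Rian, the next RNA of its cluster, at 9.103 and 17.50 CPM (1.92, 1.79 to 2.07). The level of Grb10 was 89.25 and 82.65 CPM, that of Ndn 30.77 and 35.87, and that of Peg3 22.93 and 21.04. The other 6 were under 5 CPM in both libraries: H19 at 4.506 and 3.907, Plagl1 at 3.882 and 3.107, Cdkn1c at 1.764 and 1.337, Igf2 at 1.032 and 0.7341, Dlk1 at 0.2805 and 0.1770 and Mest at 0.1629 and 0.3015 CPM. Organoid FBs with many cycling markers had more H19, at 10.24 and 5.359 CPM, than the other FBs, at 3.617 and 3.664 CPM.

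Cdkn1c, Ndn and Mest were lower, and H19 higher, in cultured than in freshly sorted FBs in all 4 comparisons. Normal organoid FBs were set against the PBS libraries and fibrogenic organoid FBs, which came from mice given a single dose, against the bleomycin libraries. Cdkn1c in organoid FBs was 0.0193 of the level in single-dose PBS, 0.0205 of that in repetitive PBS, 0.0485 of that in single-dose bleomycin and 0.0286 of that in repetitive bleomycin. H19 was higher in organoid FBs, by at least 9.23-fold over single-dose PBS, where no UMI was found, and by 26.4, 2.13 and 6.11 times over repetitive PBS, single-dose bleomycin and repetitive bleomycin. Ndn was at 30.77 and 35.87 CPM in organoid FBs, under its lowest level in lung FBs given above. Mest was 0.125, 0.180, 0.156 and 0.184 of its level in single-dose PBS, repetitive PBS, single-dose bleomycin and repetitive bleomycin. The Mest ratio to single-dose PBS rests on 18 and 8 UMIs, under the minimum of 50. Meg3 was within 2-fold of both single-dose libraries and past 2-fold over both repetitive libraries. Members past 2-fold numbered 3 of 8 (45.1% of genes), 7 of 9 (41.7%), 5 of 9 (36.0%) and 5 of 9 (41.6%) in that order. The counts against the single-dose libraries include Igf2. It had 114 UMIs in normal and 112 in fibrogenic organoid FBs and no UMI in the single-dose libraries, and the origin of those zeros was not tested. Culture, library, for the repetitive libraries the dosing schedule, and for the single-dose tables chemistry and annotation differ together here and cannot be told apart.

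In organoid epithelium, barcodes with epithelial markers (82871 to 86877 CPM of the list, against 692.0 to 862.4 CPM of the FB list), Cdkn1c was higher than in the FBs of the same culture. It was at 17.88 CPM in epithelium and 1.764 in FBs of normal cultures (10.1-fold) and at 18.92 and 1.337 CPM in fibrogenic cultures (14.1-fold). Within the epithelium, cells with under 3% surfactant UMIs had 40.60 and 42.39 CPM and the surfactant-rich cells 15.02 and 14.39 CPM, ratios of 2.70 (2.38 to 3.07) and 2.95 (2.58 to 3.36). Grb10 was at 10.31 and 7.906 CPM in epithelium, 11.5% and 9.57% of its FB level, and Plagl1 was at 69.0% and 60.6% of it. As a measure of free FB RNA, Col1a1 was at 0.626% and 1.14% of its FB level, and Col3a1 at 0.687% and 1.49%. Ndn (1.33% and 2.98%), Peg3 (1.85% and 2.86%) and H19 (2.12% and 1.49%) were at 1.068 CPM or less in epithelium. The intervals of Ndn (0.898% to 1.91% and 2.24% to 3.88%) and Peg3 (1.25% to 2.63% and 1.94% to 4.07%) lay above the Col1a1 and Col3a1 shares in both cultures, and those of H19 (0.849% to 4.41% and 0.307% to 4.38%) included the Col3a1 share in fibrogenic cultures. Col1a1 and Col3a1 are FB markers that the epithelial gate limits, so their shares may be held low by the gate. The part of free FB RNA in the values of Ndn, Peg3 and H19 was not tested.

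Between the cultures, 3 of 7 measured members were past 2-fold in epithelium (2.08% of 14467 genes). Meg3 was at 57.42 CPM in normal and 22.75 CPM in fibrogenic cultures (0.396, 0.371 to 0.423), opposite to its direction in organoid FBs. Ndn was at 0.4100 and 1.068 CPM (2.61, 1.64 to 4.21), and Col1a1 in the same gates was at 18.51 and 36.28 CPM, a difference of the same sign, and the part of free FB RNA in the value of Ndn was not tested. Dlk1 had 135 UMIs in normal and 0 in fibrogenic cultures, but 116 of the 135 were in 1 cell. Cdkn1c was 1.06 times as high, and the ratios of Grb10 (7.906 against 10.31 CPM) and Plagl1 (1.884 against 2.679 CPM) were under 2-fold.

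Meg3 in the epithelium came from few cells with many molecules each. A UMI was found in 154 of 1703 cells (9.04%) of normal and 77 of 1642 cells (4.69%) of fibrogenic cultures. After thinning to 2000 UMIs, with shallower cells left out, the shares were 4.42% and 1.83%. At least 10 UMIs were found in 80 and 23 cells, with up to 208 and 161 in 1 cell. The 5% of cells with the most held 96.3% of Meg3 UMIs in normal cultures. In fibrogenic cultures they held 100%, which follows from the 4.69% of cells with any UMI. In the cells with at least 10, Rian was at 157.2 and 163.1 CPM, against 0.1685 and 0.3557 CPM in cells with no Meg3 UMI, and Mirg was at 33.87 and 23.10 CPM against 0.03065 and 0.1046 CPM. RNAs of the same cluster were therefore found in the same cells. The gates require epithelial markers, and Sftpc was at 82606 and 58302 CPM in these cells against 73067 and 71403 CPM in cells with no Meg3 UMI. Col1a1 was at 19.15 and 36.81 CPM against 18.66 and 36.56 CPM. The gates also limit FB markers, Col1a1 among them, so similar Col1a1 levels cannot show whether these cells hold FB RNA. The part of FB RNA in their Meg3 level was not tested. Cdkn1c was at 5.373 and 14.44 CPM in cells with at least 10 Meg3 UMIs and 18.77 and 18.96 CPM in cells with none, and the counting intervals overlapped in fibrogenic cultures (8.817 to 22.29 against 17.74 to 20.23).

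Organoid FBs showed a like split. A UMI of Meg3 was found in 498 of 2068 cells (24.1%) and 892 of 3298 cells (27.0%), and at least 10 in 188 and 392 cells. In the latter Rian was at 49.47 and 59.77 CPM, against 0.5292 and 1.281 CPM in cells with none. The cells with at least 10 were deeper, with a median of 71513 and 84111 UMIs against 45830 and 8207 UMIs, and in epithelium the medians were 47372 and 55904 UMIs against 40498 and 32505 UMIs, so depth moves with this split in both gates. The top 5% of cells held 65.8% and 62.4% of the Meg3 UMIs. In the adventitial gate of the repetitive PBS and bleomycin libraries, cells with at least 10 Meg3 UMIs had Rian at 286.9 and 196.1 CPM, and cells with none had it at 22.87 and 11.65 CPM. Depth differed there as well, with medians of 15045 and 15937 UMIs against 4385 and 2498 UMIs.

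**Figure D4:**
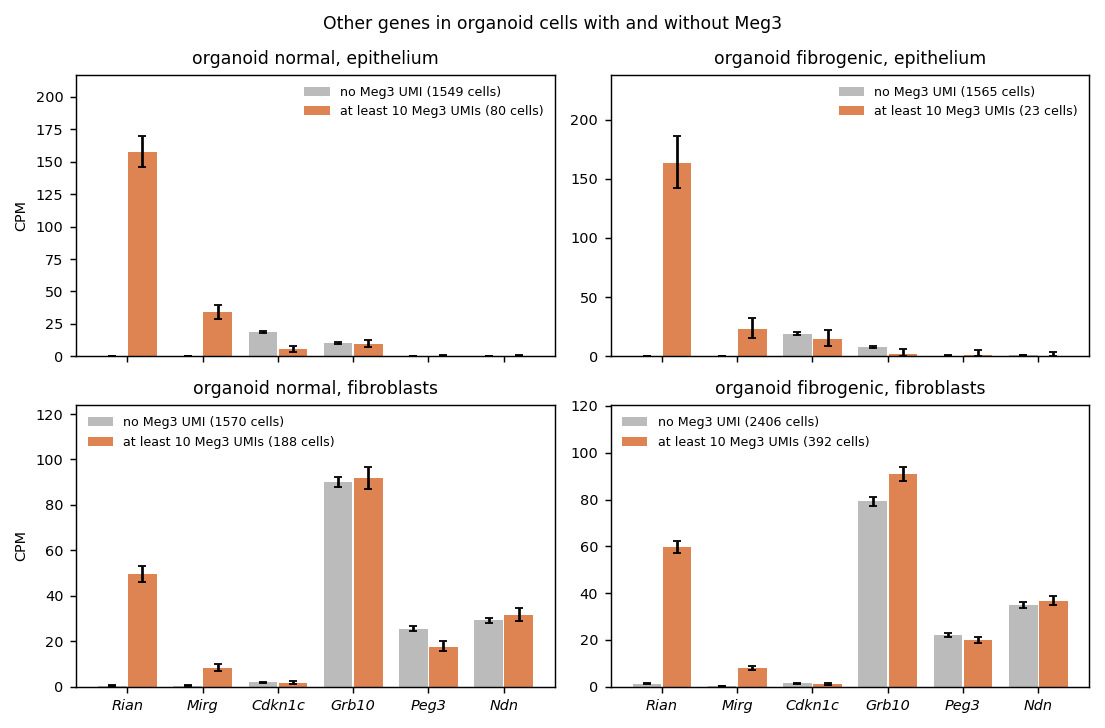
Levels (CPM, bars from 0, vertical scales differ between panels) of Rian, Mirg, Cdkn1c, Grb10, Peg3 and Ndn in organoid cells with at least 10 UMIs of Meg3 and in cells with none, for FBs and epithelium of both organoid libraries, with 95% counting intervals. Rian and Mirg are high in the cells with Meg3 in all 4 pairs, and Cdkn1c is lower in epithelial cells with at least 10 Meg3 UMIs in normal cultures, while the intervals overlap in fibrogenic cultures.

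The genes with the most similar pattern were taken for the 3 members with the highest median over lung FBs, from Pearson correlations of log2(CPM + 1) over 28 sums of library and gate (20 from lung), across 14866 genes. Sums of 1 library share its depth and RNA quality, so these are descriptions. For Grb10 they were Cp (r = 0.963), which encodes ceruloplasmin, Evc2 (0.950) and Afap1l2 (0.943). For Cdkn1c they were the AP-1 gene Jund (0.937), Ppl (0.918), which encodes periplakin, and the AP-1 gene Jun (0.914), of which Jun is on the stress list. For Meg3 they were Mirg of its own cluster (0.874), Ddost (0.855) and the cytokine gene Il33 (0.843).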

How the data were processed

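Droplet single-cell RNA sequencing was done on 6 libraries, and the authors deposited raw UMI counts per gene symbol and barcode, made with Cell Ranger 3.0.1 against mm10 per the labels, with no normalization. The single-dose libraries used a 3′ kit of an earlier version and Gencode M17 in the study's methods. No column of another series was found. The 10 members and the gene lists were chosen with earlier results of these data known.

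Barcodes with at least 1000 UMIs and at most 10% mitochondrial UMIs were gated on summed marker UMIs with Python 3.11.15, numpy 2.4.6 and scipy 1.17.1. FBs needed 0.3% of UMIs in FB markers and at most 0.15% in markers of other lineages (organoid FBs 0.5% and 0.3%, organoid epithelium 1% epithelial and at most 0.3% FB). The alveolar and adventitial gates needed a log2 ratio of the marker sums past 1. Between 84 and 727 alveolar-gated and 14 and 308 adventitial-gated barcodes per library lay within 0.5 of that limit. No doublet caller was run, and the limits on other lineages' markers stand in its place. Pairs of libraries shared 0 to 30 barcode sequences.

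Between conditions there is 1 library each and no test. Summed UMIs were given as CPM with exact Poisson intervals (95%) and as ratios with exact conditional binomial intervals. A gene counted as measured with at least 50 UMIs in the sums compared, and 0 was replaced by a floor of 3 UMIs per sum for a bound. The adventitial and alveolar sums of the 4 lung libraries were tested with edgeR 4.0.16 (R 4.3.3): quasi-likelihood test, library as block, TMM, filterByExpr, adjusted p at most 0.05. In simulated counts over 10786 genes this recovered 62 of 100 genes changed by a log2 of 1 and 96 of 100 changed by 2. DESeq2 1.42.0, other filters, scalings and gates, and leaving out each library were alternatives, and a split by stress genes was added after seeing the data. Shares of cells have Clopper-Pearson intervals, not printed here. They were repeated in cells with at least 2000 UMIs, each thinned to 2000 UMIs.

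All members are named. Of 30 other imprinted genes, those past the test (at most 4 each way) and, per comparison, those with the highest and lowest ratios are named, and the 6 related inhibitors and 7 IGF partners are given where tested or measured.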

Additional observations from a re-analysis of the deposited data

Results flagged for a closer look

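Each of these stood out among 31 pairs of member ratios, looked at for opposite directions, and 100 levels outside FBs, and none was tested. Igf2 was 1.65 times as high with bleomycin in the alveolar gate of the repetitive experiment and 0.230 times as high in the adventitial gate, and the difference between the gates was not tested. These ratios rest on 38 and 35 UMIs in the alveolar gate and 23 and 41 UMIs in the adventitial gate.

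Meg3 was 1.67 times as high in FBs of fibrogenic as of normal organoids and 0.396 times as high in the epithelium of the same cultures, and the difference between the cell types was not tested. The epithelial value rests on the 80 and 23 cells with at least 10 Meg3 UMIs.

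Outside the FB comparisons, Mest was at 60.10 CPM in endothelium-gated barcodes of repetitive bleomycin (10 UMIs, 22 barcodes), against 3.106 CPM in repetitive PBS (72 barcodes). Grb10 was at 56.07 CPM in B cell-gated barcodes of repetitive bleomycin (23 UMIs, 78 barcodes), against 0 UMIs in 43 barcodes of repetitive PBS.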

How the results depend on the processing

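In the comparison of gates, Meg3, Mest and Ndn were called in 11 of 11 alternatives (highest edgeR or DESeq2 adjusted p 5.33e-04, 0.00116 and 0.0498), Cdkn1c in 9, Grb10 in 6, and Peg3 and Plagl1 in 0. Members called numbered 5 (24.9% of genes), and 8 of 10 with no filter on low counts (20.6%), 3 without the library block (Cdkn1c at an adjusted p of 0.617 and Grb10 at 0.493, with 6.97% of genes called) and 4 to 5 with each library left out (19.3% to 21.2%). Ratios between conditions have no test. With every gene that had 1 UMI counted, members past 2-fold numbered 3 (single-dose, 32.7% of genes), 4 (repetitive, 33.0%) and 5 (normal organoids over single-dose PBS, Igf2 among them, 56.7%). With 1 CPM added to both groups they numbered 1 (repetitive, 8.20%), 4 (normal organoids over repetitive PBS, 29.7%) and 3 (fibrogenic organoids over single-dose bleomycin, 26.5%). With stricter gates 1 member was past 2-fold after repetitive doses (12.1%). In cells with few stress RNAs, chosen after seeing the data, 2 were past it after a single dose (14.1%) and 4 of 6 in the repetitive alveolar gate (11.3%, in place of 1 of 7). Among these 4, Meg3 and Plagl1 rest on few UMIs. Over all FBs, Plagl1 reversed to 1.68 after repetitive doses. The causes were not tested. Beyond the library block of the gate test, replicate numbers give no pairs of conditions. The conditions share only 1 replicate number. A fit of bleomycin with the experiment as a block was not run, since dose, schedule and kit differ between the experiments. Each library pooled its mice before sequencing, which leaves no measure of how single mice vary. Shares of cells fell with thinning, from 33.6% to 21.2% for Meg3 in the adventitial gate of repetitive bleomycin.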

Other observations

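Nnat and Grb10, both higher in the alveolar than in the adventitial gate, were compared between fibrogenic organoid FBs and FBs of the bleomycin libraries. Nnat was at 2.910 CPM in FBs of fibrogenic organoids, 0.0427 of its level in single-dose bleomycin FBs and 0.0531 of that in repetitive bleomycin FBs. Grb10 in the same organoid FBs was at 82.65 CPM, against 120.0 and 246.6 CPM. Nnat was itself higher with bleomycin in lung FBs, and with PBS it was at 6.183 CPM (single-dose) and 3.817 CPM (repetitive). The size of its difference thus depends on the library it is set against. Airn, the antisense RNA of the Igf2r locus, was at 100.1 CPM in normal organoid FBs, 4.30 times its level in single-dose PBS (23.27 CPM) and 0.322 of that in repetitive PBS (310.9 CPM). The lung tables thus differ from each other in Airn by more than either ratio, and kit, annotation and treatment schedule cannot be told apart there. Cdkn2a, the INK4 and Arf gene, was at 71.97 and 95.66 CPM in organoid FBs and at 0.2897 to 3.281 CPM in lung FBs, the opposite direction to Cdkn1c.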
